A study of Drosophila melanogaster with 6 samples.

Results

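The genes described here act late in N-glycan processing or remove terminal N-acetylglucosamine (GlcNAc). They were the N-acetylglucosaminyltransferase genes Mgat1, Mgat2, Mgat3 and Mgat4a and the beta-N-acetylhexosaminidase genes fdl, Hexo1 and Hexo2 of Drosophila melanogaster. Members were found by gene symbol: each probe set, the array's unit of measurement, was taken if the platform annotation gave it 1 symbol and that symbol was in the set of 7. This gave 6 probe sets, 1 for each gene except Hexo1, of 18952 probe sets in all, and Hexo1 was not analysed here. The probe sets were 1623607_at for Mgat1, 1633061_at for Mgat2, 1638371_at for Mgat3, 1635035_at for Mgat4a, 1635714_s_at for fdl and 1640957_at for Hexo2, and all 6 passed the filter on low values. Expression had been measured in heart/nephrocyte complexes of adult female flies on 6 single-channel Affymetrix arrays. In 1 group of 3 arrays the flies had been fed for 21 days on medium with 0.1 M glucosamine, and in the other group of 3 arrays on medium with 1.0 M sucrose. No transgene, mutation or strain is named in the labels, and no arm on unsupplemented food was analysed here, so the diets differ both in the sugar and in its concentration. Words such as fell and rose compare the glucosamine arrays with the sucrose arrays, and the direction against unsupplemented food is unknown. The labels name 30 females without saying whether they were pooled on each array or whether the arrays came from separate flies, and the p-values therefore cover the spread among these 6 arrays only, which may be technical.

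N-glycans are sugar trees on the asparagines of secreted and membrane proteins. They are built on a lipid, moved to the protein by oligosaccharyltransferase, trimmed in the endoplasmic reticulum and reshaped in the Golgi. There Mgat1 adds a first GlcNAc to a mannose arm, which opens the way to hybrid and complex glycans, and Mgat2 adds one to the other arm. In mammals MGAT3 adds the bisecting GlcNAc and MGAT4A a further branch. The donor for all of them is UDP-GlcNAc, the product of the hexosamine pathway that glucosamine enters. In insects the hexosaminidase encoded by fdl (fused lobes) takes off the GlcNAc that Mgat1 added, and the short paucimannose glycans that result are the common form. Hexo1 and Hexo2 encode related beta-N-acetylhexosaminidases, an enzyme family that also acts on chitin fragments.

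Intensities are on a linear scale as deposited, and each difference is the glucosamine mean minus the sucrose mean of log2(intensity + 16). The upper quartile of intensity was between 222 and 237 on every array, and Pearson correlations across genes were 0.972 to 0.978 within either group and 0.931 to 0.952 between groups. Heart and nephrocyte markers ran from bright to dim. Hand, whose transcription factor marks the heart and its pericardial cells, lay between 7976 and 9942 on the glucosamine arrays and between 12941 and 16538 on the sucrose arrays. It was the 1 of 8 heart tube markers past the threshold (difference −0.75, limma adjusted p = 0.0239). The other heart tube markers were far dimmer: tup lay at 237 to 524 on the glucosamine arrays and 292 to 532 on the sucrose arrays, and H15 at 110 to 230 on the glucosamine arrays and 135 to 207 on the sucrose arrays. The markers pnr, mid, Sur and Ork1 were at 18.2 to 56.6 on the glucosamine arrays and 25.6 to 89.8 on the sucrose arrays. The marker ths was near the floor, at 8.67 to 12.7 on the glucosamine arrays and 8.25 to 8.94 on the sucrose arrays. The nephrocyte genes differed with diet. Of 9 nephrocyte markers 6 passed the threshold and were lower after glucosamine, against 8.61% of everything tested, and none were higher. The summed intensity of all 9 was 6962 to 8733 on the glucosamine arrays and 23922 to 38908 on the sucrose arrays. Fewer cells of a type and less RNA per cell cannot be told apart in such samples. Markers of other tissues were uneven between arrays. The summed gut markers were 166, 1156 and 10031 on glucosamine replicates 1, 2 and 3, against 190 to 611 on the sucrose arrays. The summed ovary markers were 8005, 1049 and 307 on sucrose replicates 1, 2 and 3, against 320 to 536 on the glucosamine arrays. None of the tested markers of gut (5), ovary (5), fat body (7), hemocytes (8) or neurons and glia (6) passed the threshold. Of 2 tested epidermis and trachea markers serp passed, and 5 gut markers and 5 of epidermis and trachea were under the filter on low values. The 5′ minus 3′ signals of 3 of 6 fly control transcripts were lower on every glucosamine array than on any sucrose array. Their log2 differences were −0.74 for eIF-4a, −0.15 for GAPDH and −0.12 for 18S rRNA. The groups overlapped for the others: actin had −0.27, a second GAPDH set −0.11 and a second Act5C set 0.60. The part of cell content and RNA quality in the results below was not tested.

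**Figure D1:**
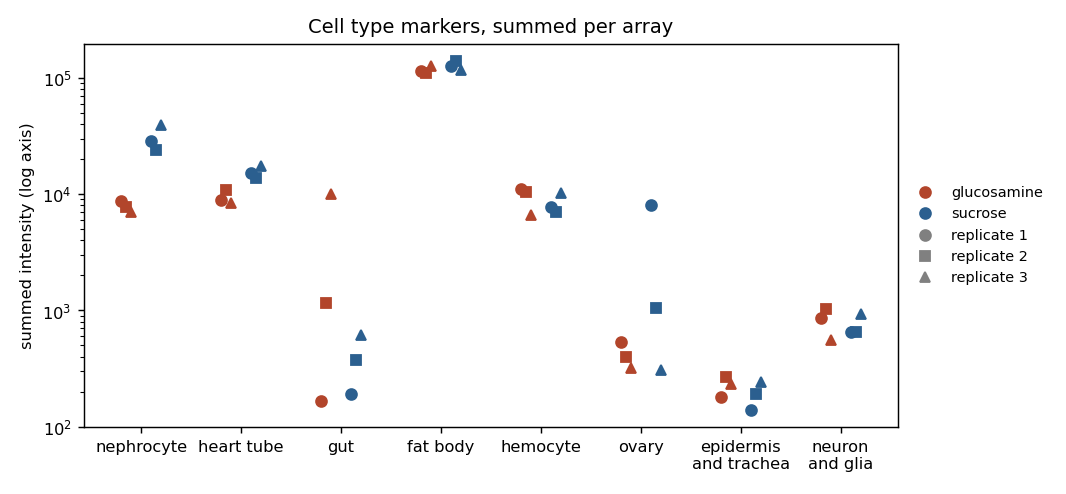
Summed intensity (log axis) of the markers of each cell type on each array, with glucosamine arrays left of sucrose arrays and the replicate shown by the symbol. The nephrocyte sums of 6962 to 8733 on the glucosamine arrays lie below the 23922 to 38908 of the sucrose arrays. Gut markers are highest on glucosamine replicate 3 and ovary markers on sucrose replicate 1, each followed by replicate 2 of the same group.

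The comparison asked how these genes differed between complexes of glucosamine-fed and sucrose-fed flies. Mgat3 and Mgat4a were lower after glucosamine than after sucrose, at 0.376 and 0.557 of the mean intensity of the sucrose arrays. Mgat1, Mgat2 and fdl did not pass the threshold, and their groups overlapped. Hexo2 had lower values on every glucosamine array than on any sucrose array and did not pass. In the limma fit across 10021 genes and unnamed probe sets, adjusted by Benjamini-Hochberg with a threshold of 0.05, 2 of the 6 measured genes were lower, none were higher and 4 did not pass. Of everything tested, 8.61% was lower past the threshold and 9.93% higher. The groups did not overlap for 3 of the 6 genes, all lower after glucosamine, and for 39.0% of everything tested, 20.0% lower and 18.9% higher. The median difference of the 6 genes was −0.49, against −0.03 over all tested. Because the genes were chosen with earlier results of these data known, these contrasts are descriptive only.

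**Figure D2:**
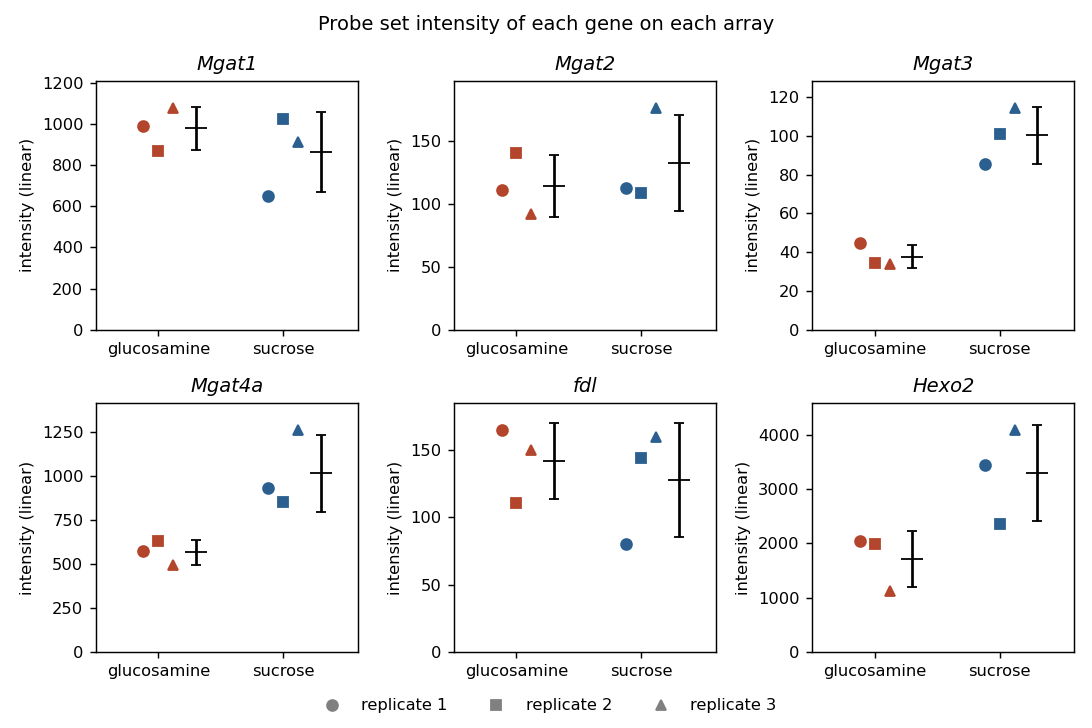
Intensity (linear axis from 0) of the 6 genes on each array, with glucosamine left of sucrose, the replicate shown by the symbol, and bars at the mean ± SD of 3 arrays. Mgat3, Mgat4a and Hexo2 lie lower on all glucosamine arrays than on any sucrose array, while Mgat1, Mgat2 and fdl overlap.

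Among the transferases, Mgat1 makes the first step. Its intensity was 988, 871 and 1079 on the glucosamine arrays, against 650, 1025 and 914 on the sucrose arrays. The groups overlapped, and sucrose replicate 1 gave the lowest value of all. The difference was 0.20 ± 0.20 (SE), with a 95% interval of −0.28 to 0.68 and an adjusted p of 0.541 in the limma fit. Without sucrose replicate 1 it was 0.01.

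Mgat2, which acts on the second mannose arm, had intensities of 111, 140 and 91.9 on the glucosamine arrays, against 113, 109 and 177 on the sucrose arrays. The groups overlapped, and sucrose replicate 3 was the single high value. The difference was −0.18 ± 0.23 (SE; 95% interval −0.72 to 0.37; limma adjusted p = 0.640), and 0.025 without that array.

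Mgat3, which shares its name with the bisecting transferase gene of mammals, had the smallest adjusted p of the 6. Its intensity was 44.5, 34.6 and 34.0 on the glucosamine arrays, against 85.3, 100.9 and 114.5 on the sucrose arrays. All glucosamine arrays were low and close to each other, and the gap between the groups was wider than the range within either group. The mean was 37.7 ± 5.90 on the glucosamine arrays and 100.2 ± 14.6 on the sucrose arrays (SD, n = 3 each). The difference was −1.11 ± 0.16 (SE; 95% interval −1.49 to −0.73; limma adjusted p = 0.00705). It passed in all 6 fits that leave out 1 array, with differences of −1.21 to −1.02. All 6 values lay between the median and the upper quartile of their arrays. At such intensities the added 16 shrinks the difference, and on the scale log2(intensity + 1) it was −1.39. Without glucosamine replicate 3, highest in gut markers, and sucrose replicate 1, highest in ovary markers, an alternative chosen after seeing the data, the difference was −1.16 (adjusted p = 0.0564).

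Mgat4a, which shares its name with the mammalian gene for a further branch, moved the same way. Its intensity was 573, 630 and 493 on the glucosamine arrays, against 932, 850 and 1263 on the sucrose arrays. The groups did not overlap, and the sucrose arrays spread more widely, with replicate 3 the highest. The mean was 565 ± 69.2 on the glucosamine arrays and 1015 ± 219 on the sucrose arrays (SD, n = 3 each). The difference was −0.81 ± 0.19 (SE; 95% interval −1.27 to −0.35; limma adjusted p = 0.0319). The call was less firm than that of Mgat3. It was kept in 1 of the 6 fits with an array left out, that without sucrose replicate 2 (adjusted p = 0.0468), and the adjusted p was 0.0512 to 0.0946 in the others, with differences of −0.93 to −0.65 over all 6. The call was also lost with no filter on low values (adjusted p = 0.0688), with the replicate block (adjusted p = 0.0931) and without both glucosamine replicate 3 and sucrose replicate 1 (difference −0.77, adjusted p = 0.149). Mgat4b, which overlaps Mgat4a in the RefSeq table and was not among the 7 genes, had a probe set of its own at 5.88 to 6.66 on the glucosamine arrays and 6.08 to 6.71 on the sucrose arrays, under the filter on low values.

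Of the hexosaminidase genes, fdl opposes Mgat1 in the Golgi. Its intensity was 165, 110 and 150 on the glucosamine arrays, against 79.9, 144 and 159 on the sucrose arrays. The groups overlapped over most of their range, with sucrose replicate 1 lowest. The difference was 0.17 ± 0.27 (SE; 95% interval −0.48 to 0.81; limma adjusted p = 0.716), and −0.10 without sucrose replicate 1.

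Hexo2 had intensities of 2039, 1985 and 1114 on the glucosamine arrays, against 3442, 2359 and 4095 on the sucrose arrays. Every glucosamine array was below every sucrose array, but the spread was wide, with glucosamine replicate 3 the lowest and sucrose replicate 3 the highest. The mean was 1713 ± 519 on the glucosamine arrays and 3299 ± 877 on the sucrose arrays (SD, n = 3 each). The difference was −0.95 ± 0.31 (SE; 95% interval −1.68 to −0.22), with an unadjusted p of 0.0180 and an adjusted p of 0.0762 in the limma fit. An unadjusted p under 0.05 was found for 32.9% of everything tested. Without glucosamine replicate 3 the difference was −0.67, and it passed in none of the 16 alternatives run.

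**Figure D3:**
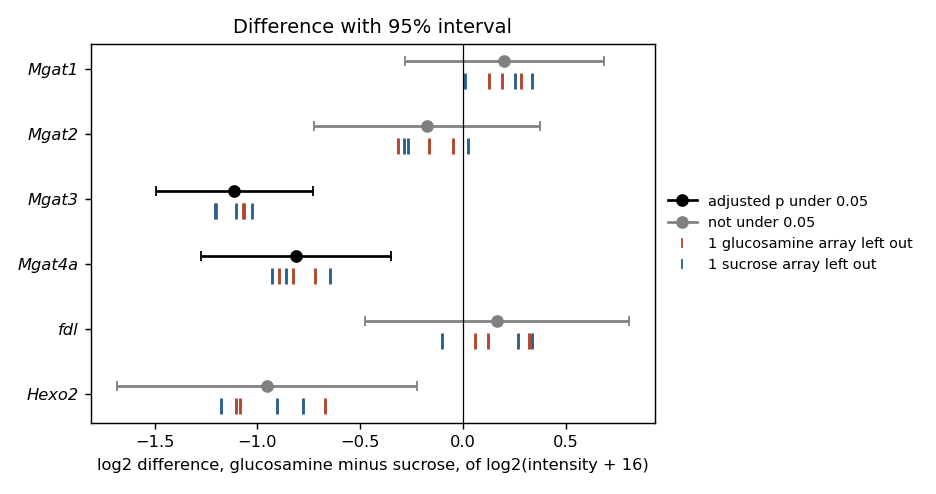
Log2 difference of each gene, glucosamine minus sucrose, with its 95% interval (points and bars) and the values with 1 array left out in turn (ticks below). The intervals of Mgat3, Mgat4a and Hexo2 lie below 0, and black points mark an adjusted p under 0.05, which Mgat3 and Mgat4a have.

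Whether genes of the set changed unequally was asked within each array. The ratios are of intensity + 16, so scaling between arrays cancels for bright genes and only in part for dim ones such as Mgat3. For 5 pairs the log2 ratio of the 2 genes was compared between diets with an exact two-sided permutation test. With 3 arrays against 3 that test cannot give a p below 0.1, so none could pass. The log2 ratio of Mgat3 over Mgat1 was lower by 1.31 on average after glucosamine, and that of Mgat4a over Mgat1 by 1.01. In both pairs the glucosamine and sucrose arrays did not overlap (exact p = 0.1, adjusted p = 0.25 over the 5 pairs). With 1 added in place of 16, Mgat3 over Mgat1 differed by −1.59. The ratio of Mgat1 over fdl, the genes for adding and removing the same GlcNAc, differed by 0.03 (exact p = 0.7). It had a mean of 2.67 ± 0.18 on the glucosamine arrays and 2.63 ± 0.20 on the sucrose arrays (SD, n = 3 each). Mgat2 over Mgat1 differed by −0.38 (exact p = 0.3) and Hexo2 over fdl by −1.12 (exact p = 0.2), both with overlapping groups. Mgat2 over Mgat1 depended on single arrays: it was −0.17 without glucosamine replicate 3, −0.23 without sucrose replicate 3, −0.59 without glucosamine replicate 2 and −0.62 without sucrose replicate 2. Without both glucosamine replicate 3 and sucrose replicate 1, Mgat2 over Mgat1 was −0.078 and Hexo2 over fdl −0.48. The remaining pairs planned held Hexo1.

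**Figure D4:**
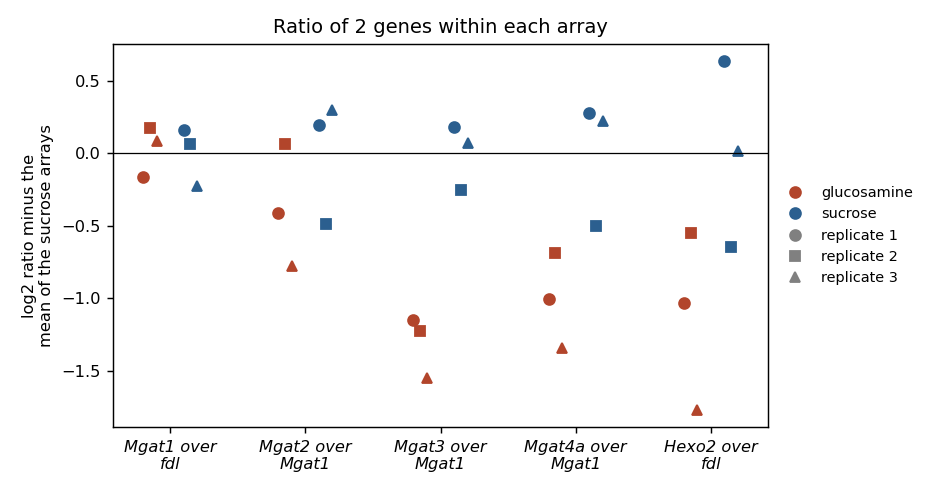
Log2 ratio of 2 genes within each array, given as its distance from the mean of the sucrose arrays, with glucosamine left of sucrose for each pair and the replicate shown by the symbol. Mgat3 over Mgat1 and Mgat4a over Mgat1 lie lower on all glucosamine arrays, by 1.31 and 1.01 on average, and Mgat1 over fdl differs by 0.03.

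The other steps of the pathway were read from lists of genes, counted in the same fit. Together the 4 lists from lipid-linked assembly to Golgi processing had 42 tested genes, of which 13 were lower after glucosamine, 2 were higher and 27 did not pass, with a median difference of −0.40. The lower calls made up 31.0% of these genes, against 8.61% of everything tested. Because the lists were chosen with earlier results of these data known, this contrast is descriptive only. The counts depended on the arrays used: without both of the arrays named above, 1 of the 42 passed, beta4GalNAcTA (difference −1.64, limma adjusted p = 0.0427), while 213 genes of all tested were higher and 122 lower.

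In the assembly of the lipid-linked precursor, 5 of 15 tested genes were lower (33.3%, against 8.61% of everything tested). Of the others, 1 was higher and 9 did not pass. Alg10, a glucosyltransferase gene of the last step of assembly, had a mean intensity of 85.6 ± 4.74 on the glucosamine arrays and 179 ± 18.8 on the sucrose arrays (SD, n = 3 each), with a difference of −0.94 ± 0.14 (SE; limma adjusted p = 0.00763). The mannosyltransferase gene Alg9 fell by 0.95, Alg13, a subunit gene of the enzyme that adds the second GlcNAc, by 0.79, and wol, which makes the glucose donor dolichyl-phosphate-glucose, by 0.82. The fifth was the mannosyltransferase gene Alg3 (−0.90), and the gene that rose was Alg12 (0.52), another mannosyltransferase gene; both were named after their values were seen. Of the 6 fits without 1 array, Alg10 and Alg9 passed in all 6, Alg13 in 3, wol and Alg3 in 1 each and Alg12 in none. The count of 5 was 2 to 4 with 1 array left out.

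All 4 measured genes of oligosaccharyltransferase passed, against 18.5% of everything tested, and they did not move one way. Stt3A and Stt3B encode alternative catalytic subunits. Stt3A rose, with intensities of 772, 717 and 1079 on the glucosamine arrays, against 533, 440 and 385 on the sucrose arrays (difference 0.89 ± 0.21, SE; limma adjusted p = 0.0309). Stt3B fell, with 1988, 1953 and 2024 on the glucosamine arrays, against 2792, 3055 and 3015 on the sucrose arrays (difference −0.57 ± 0.12, SE; limma adjusted p = 0.0244). The groups of both genes were apart on every array. OstDelta, a further subunit gene, fell by 0.88 and Dad1, a small subunit gene, by 0.77. OstDelta passed in all 6 fits without 1 array, Stt3A in 2, Dad1 in 1 and Stt3B in none.

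Among the genes of trimming and of the lectin chaperones, 1 of 9 tested was lower and none were higher. It was GCS2beta, the gene of the beta subunit of glucosidase II, which fell by 0.72 (limma adjusted p = 0.0297) and passed in 2 of the 6 fits with 1 array left out. Differences were negative for 8 of the 9, and for 7, GCS2beta included, every glucosamine array was below every sucrose array, which was so for 20.0% of everything tested. The lower calls were 11.1% of this list, near the 8.61% of everything tested. The median was −0.34.

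The Mgat enzymes act in the Golgi. In the list of Golgi processing and capping, the median was −0.40. Of 14 tested genes, 4 were lower (28.6%, against 8.61% of everything tested) and none were higher. The most marked was beta4GalNAcTA, which encodes a transferase that adds N-acetylgalactosamine to terminal GlcNAc. Its intensity was 351, 340 and 395 on the glucosamine arrays, against 769, 964 and 1283 on the sucrose arrays (difference −1.41 ± 0.21, SE; limma adjusted p = 0.00763). The groups were far apart, and the call was kept with each array left out. Efr, which was in this list but encodes a nucleotide-sugar transporter of the endoplasmic reticulum, fell by 0.88 and was likewise kept. The mannosidase II gene alpha-Man-IIa, whose enzyme trims mannose between the Mgat1 and Mgat2 steps, fell by 0.53, and the related alpha-Man-IIb by 0.78. With 1 array left out, alpha-Man-IIa passed in none of the 6 fits and alpha-Man-IIb in 1.

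**Figure D5:**
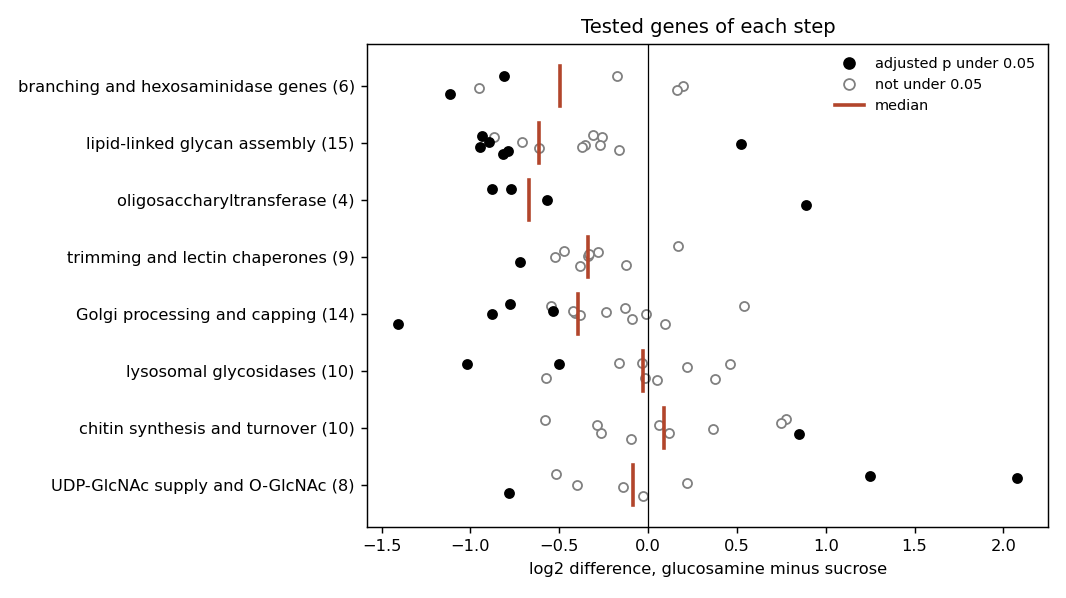
Log2 difference, glucosamine minus sucrose, of every tested gene of each list (number in brackets), with filled points for an adjusted p under 0.05 and a line at the median. The medians run from −0.67 for oligosaccharyltransferase to 0.09 for chitin genes.

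The breakdown of glycans and the turnover of chitin, to which hexosaminidases also belong, gave 2 further lists. Of 10 tested genes in the list of lysosomal glycosidases, 2 were lower (20.0%, against 8.61% of everything tested) and none were higher, with a median of −0.03. That list also held Pngl (−0.17) and ENGase (−0.04), whose enzymes are not lysosomal. The beta-mannosidase gene beta-Man fell by 1.02 ± 0.19 (SE; limma adjusted p = 0.0148) and passed in 5 of the 6 fits with 1 array left out. The alpha-mannosidase gene LManII fell by 0.50 and passed in none of them. Of 10 tested chitin genes 1 was higher, near the 9.93% of everything tested, none were lower, and 5 more were under the filter. It was serp, a chitin deacetylase gene of trachea and epidermis, at 48.3 ± 7.02 on the glucosamine arrays and 19.6 ± 2.88 on the sucrose arrays (SD, n = 3 each).

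Of 8 tested genes of UDP-GlcNAc supply and O-GlcNAc, 2 were higher, 1 was lower (12.5%) and 5 did not pass. Over everything tested, 9.93% was higher and 8.61% lower. Nagk, the kinase of GlcNAc, rose by 1.25, and Gfat1, which makes glucosamine-6-phosphate, rose by 2.08 in its brighter probe set, while a second had −0.04. That second Gfat1 set was dim and carried little information, with means of 14.3 on the glucosamine arrays and 15.4 on the sucrose arrays. The mean of the Gfat1 probe sets had 1.02 and passed (limma adjusted p = 0.0199). Gnpnat, which acetylates glucosamine-6-phosphate, fell by 0.78 (limma adjusted p = 0.0431) and did not pass in any fit without 1 array. Its other probe sets had −0.95 (adjusted p = 0.182) and −0.05 (adjusted p = 0.640), the last near the floor, and the mean of its probe sets had −0.59 and did not pass (adjusted p = 0.0796). Gfat1 and Nagk passed in all 6 fits without 1 array.

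In the RefSeq table Alg7, the gene of the first step of lipid-linked assembly, overlaps Mgat3. Its own probe set had 697, 1013 and 778 on the glucosamine arrays, against 1681, 1378 and 1065 on the sucrose arrays, a difference of −0.71 ± 0.22 (SE; adjusted p = 0.0718). Of the next protein-coding genes beside Mgat3, CG5439 rose by 1.11 (adjusted p = 0.00958) and Rsph1 had −0.64 (adjusted p = 0.112), so the differences around Mgat3 ran both ways. Beside Mgat4a, mop rose by 0.93 and Tsen34 had 0.04. Beside Hexo2, CG1785 rose by 1.17, and the overlapping CG2004 had −0.97 (adjusted p = 0.143). The gene lms, which overlaps Mgat1, had 0.26 (adjusted p = 0.468), and of the genes that overlap fdl, Dh44-R2 had 0.38 and s-cup −0.13. Next to Mgat2, CG7920 fell by 0.66 (limma adjusted p = 0.0165) and RpS28a had −0.27.

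The genes with values most like each member over the 6 arrays were found by Pearson r of log2 values among 8766 other tested genes with a symbol. With 6 arrays in 2 groups many genes come close, and all genes were read from the same arrays with the same cell content. There were 189 genes with r over 0.95 with Mgat3 and 138 with Mgat4a. The closest to Mgat3 were Buffy (r = 0.996; difference −1.55), a gene of the Bcl-2 family, and EcR (r = 0.995; difference −0.44), the ecdysone receptor gene. The closest to Mgat4a were CG34408 (r = 0.995; difference −0.62) and CG3328 (r = 0.993; difference −1.04), and to Hexo2 phtf (r = 0.994) and CG5112 (r = 0.994). For the other genes the number was smaller, with 38 over 0.95 for Hexo2, 16 over 0.95 for Mgat1, 18 for Mgat2 and 5 for fdl. Mgat1 was closest to CG7220 (r = 0.995) and Phax (r = 0.990), Mgat2 to CG3746 (r = 0.991) and CG10226 (r = 0.988), and fdl to Sgf29 (r = 0.981) and tra2 (r = 0.960).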

How the data were processed

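The deposited values are intensities on a linear scale, 1 for every probe set on every array. Per the labels' protocols, RNA was purified with Trizol and RNeasy MinElute and biotinylated cRNA was made by the standard Affymetrix protocol. Summarisation, background correction and normalization were not given in the sources used here, and the intensities were used as deposited. Groups came from the titles.

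Of 18952 probe sets, 183 controls and 402 with several gene symbols were left out. For a gene with several probe sets the one with the highest mean was used, and the lowest 40% of 16702 genes and unnamed probe sets by mean were left out, which left 10021. The fit used limma (lmFit, eBayes; version 3.58.1, R 4.3.3) on log2(intensity + 16). Its two-sided p-values were adjusted by Benjamini-Hochberg across all of these, with a threshold of 0.05. Low intensities carry little information, and the added 16 understates their differences. The number of arrays limits the precision.

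The named genes were all members, up to 4 of each list past the threshold with the smallest p, and the 2 genes most like each member; overlapping and next genes were named by position in the RefSeq table. The members and lists were chosen with earlier results of these data known. Of 178 list entries, markers included, 149 had a probe set. Current names came from RefSeq, Release 6, by which 13544 of 13647 probe sets with 1 symbol matched. Tested on simulated data of 10021 genes with 50 changed at each size, the fit recovered 0% of genes changed by 0.5, 40% at 1, 92% at 2 and 100% at 4 on the log2 scale, with 9 false calls. A far smaller share of genes was changed there than the 18.5% that passed in the data. The Benjamini-Hochberg adjustment is stricter when fewer genes change, so these recovery rates do not carry over to the data. Ratios within arrays were tested in Python 3.11.15 with scipy 1.17.1. The alternatives were 3 normalizations, 2 filters, 2 ways to treat probe sets, another pseudocount, another prior, the replicate number as a block, and each array left out.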

Additional observations from a re-analysis of the deposited data

How the results depend on the processing

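Mgat3 passed in all 16 alternatives planned, with differences of −1.39 to −1.02, and of −1.21 to −1.02 with 1 array left out. Mgat4a passed in 9, with differences of −0.93 to −0.65, and did not pass with no filter on low values (−0.81, adjusted p = 0.0688). With 1 array left out, 1 to 2 of the 6 genes were lower past the threshold, 2 to 4 genes of lipid-linked assembly, 1 to 2 of oligosaccharyltransferase, 0 to 1 of trimming, 2 to 4 of Golgi processing, 0 to 1 of lysosomal glycosidases, 0 to 1 of chitin genes and 0 to 1 of UDP-GlcNAc supply. Higher were 0 of lipid-linked assembly, 0 to 1 of oligosaccharyltransferase and 1 to 2 of chitin genes, and over all genes 496 to 829 were higher and 286 to 635 lower. Mgat2 was 0.025 without sucrose replicate 3 and −0.32 at the lowest, fdl −0.10 to 0.33, and the ratio of Mgat1 over fdl −0.080 to 0.13, negative without glucosamine replicate 2 (−0.038) or sucrose replicate 3.

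With no filter, 1 of the 6 genes was lower, with 3 of lipid-linked assembly, and 0 of oligosaccharyltransferase were higher. With quantile normalization, median centring, cyclic loess or log2(intensity + 1), 1 lysosomal gene was lower. Median centring and log2(intensity + 1) left 0 higher in lipid-linked assembly, and log2(intensity + 1) gave 3 higher chitin genes. UDP-GlcNAc supply had 0 lower with log2(intensity + 1) or the mean of probe sets, and chitin 0 higher with the lowest 60% left out.

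Deviations from the group means correlated at 0.02, −0.12 and −0.05 between same-numbered arrays. Whether the replicate numbers pair the arrays is not given in the labels, and these values cannot settle it. With the replicate block 586 genes were higher and 400 lower, and Mgat4a (−0.81) had an adjusted p of 0.0931, so 1 of the 6 genes was lower. Lipid-linked assembly had 3 lower and 0 higher, oligosaccharyltransferase 1 and 0, trimming 0 lower, Golgi processing 2, lysosomal 0 and UDP-GlcNAc supply 0.

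Without both glucosamine replicate 3 and sucrose replicate 1, an alternative chosen after seeing the data, 213 genes were higher and 122 lower, and 0 of the 6. Mgat3 had −1.16 (adjusted p = 0.0564), Mgat4a −0.77 (adjusted p = 0.149), Mgat1 −0.061 and fdl −0.15. Golgi processing had 1 lower, and the other lists 0 lower, with 0 higher in lipid-linked assembly, oligosaccharyltransferase and chitin. Fewer arrays alone weaken the test. The cause of each other change was not tested.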
